A study of Mus musculus with 6 samples.

Results

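The genes described here are those of the T cell receptor signalling cascade, the chain of proteins that carries a signal from the antigen receptor of a T cell to its transcription factors. The list held 38 genes, taken by their place in the cascade, and a member counted as measured where a probe set of the array named that gene alone. This gave 33 of the 38 members, with 61 probe sets, among 12393 genes in all. Lck, Malt1, Itpr1, Ubash3a and Cblb were not analysed here. Each gene was represented by its brightest probe set, the one with the highest mean over the 6 arrays.

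The cells were mouse CD4+CD25+ regulatory T cells (Treg), which restrain immune responses, taken with magnetic beads. One group of 3 arrays came from animals with the HDAC6 gene knocked out, and the other, also of 3, from wild-type animals of strain C57BL6. HDAC6 is a deacetylase that acts mainly in the cytoplasm, on tubulin and the chaperone HSP90 among others. The labels name no strain for the knockout animals. They also do not say how the gene was disrupted, how old the animals were, or whether an array held cells of 1 animal or of several. The study's title links HDAC6 and HSP90 to Treg function, and this comparison asks whether transcripts of the receptor cascade differ without HDAC6.

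When the receptor binds its ligand, the kinase LCK, brought in by the CD4 coreceptor, phosphorylates the CD3 and zeta chains, and ZAP-70 docks there. ZAP-70 then phosphorylates the adaptors LAT and SLP-76, on which phospholipase C-gamma, VAV1 and Ras activators assemble. These feed a calcium branch that ends in NFAT, a protein kinase C branch that ends in NF-κB, and a Ras branch. Phosphatases, ubiquitin ligases and diacylglycerol kinases restrain each step. Treg need signals through this receptor to keep their suppressive function, and much of the control lies in protein phosphorylation, which a transcript array does not measure.

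The 6 arrays had medians from 6.22 to 6.27 on the log2 scale of the deposited values. Hdac6 read 7.54, 7.86 and 7.64 on the knockout arrays against 8.54, 8.23 and 8.42 on the wild-type arrays, so the groups did not overlap. The log2 difference was -0.71 (SE 0.11, limma's adjusted p = 0.0862). With trend and robust settings the adjusted p was 0.0247, past the threshold of 0.05, and over all alternatives it ran from 0.0247 to 0.286. Whether its probe set covers the disrupted part of the gene is unknown here. The preparations carried Treg and T cell markers in both genotypes: Foxp3, the factor that defines Treg, averaged 10.32 in the knockout and 10.26 in wild type, and the T cell surface gene Thy1 averaged 11.94 and 12.04. Over the 6 Treg markers the knockout arrays averaged 9.81 to 9.86 and the wild-type arrays 9.69 to 9.74, with 5 of 6 markers higher in the knockout. By limma 0 of these passed, and 1 had an unadjusted p under 0.05, the costimulatory receptor gene Tnfrsf4 (0.27, SE 0.09). Of all genes 11.2% had an unadjusted p under 0.05, the background for this count and for those of the marker lists below. Averaged over 6 T cell markers, of which 3 are CD3 members described below, the knockout arrays read 11.92 to 11.99 and the wild-type arrays 12.00 to 12.08, with 5 of 6 markers lower in the knockout. Plasma cell markers were higher in the knockout in 8 of 8 cases, with a list average of 8.447 to 8.997 against 8.035 to 8.293, and 0 of them passed the test by limma (5 had an unadjusted p under 0.05). Markers of CD8 T, NK and innate-like lymphocytes were lower in 8 of 10 cases. Their list averages overlapped, at 6.716 to 7.051 in the knockout and 7.004 to 7.299 in wild type. By limma 0 of these 10 markers passed, and 4 had an unadjusted p under 0.05. These were Zbtb16 (-1.51, SE 0.28), Gzma (-1.03, SE 0.25) and Cd8b1, which were lower, and Cd8a, which was higher. List averages overlapped for B cell markers (6.63 to 7.04 against 6.93 to 7.08) and myeloid markers (5.56 to 6.02 against 5.80 to 6.53). Those of erythroid markers (4.09 to 4.30 against 4.249 to 4.315) overlapped too. In these lists 0 markers passed by limma. The B cell list held 2 with an unadjusted p under 0.05, both lower: Ms4a1 (-1.13, SE 0.29), without overlap, and Ebf1 (-0.44, SE 0.18). Direction within that list was mixed, with 5 genes above wild type and 3 below. The myeloid list held 1 such gene, Cd14 (-0.19, SE 0.08), with 8 genes below wild type and 3 above. The erythroid list held 0. The part of these other cells in the cascade values was not tested. A level here is that of a mixed preparation, in which fewer cells of a type and less RNA per cell cannot be told apart.

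Transcripts of the cascade differed little between HDAC6 knockout and wild-type Treg. Of the 33 members 0 passed limma's threshold, an adjusted p under 0.05 over all genes, against 0.161% of all genes. At an unadjusted p under 0.05 the count was also 0, where 11.2% of all genes lay, and an unmoderated test gave 2 at that level and 0 after adjustment. The log2 differences, knockout minus wild type, ran from -0.24 for Rasgrp1, an activator of Ras, to 0.27 for Cbl, a ubiquitin ligase that restrains the cascade. No member differed by 1.5-fold or more, while 1.78% of all genes did. The lowest adjusted p among members was 0.469.

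The differences of most members were also bounded within 1.5-fold. The 95% interval of the log2 difference lay within 1.5-fold in either direction (0.58 on the log2 scale) for 32 of 33 members, against 90.1% of all genes. Rasgrp1 was the exception, with an interval from -0.65 to 0.16. Cbl lay only just inside, with an upper limit of 0.581 against a bound of 0.585. The standard error of a member's difference had a median of 0.08 and a range of 0.06 to 0.17, against a median of 0.09 for all genes. Members were brighter, with a median level of 10.28 against 6.84 for all genes. RMA, the method that gave the deposited values, can understate changes of very bright probe sets, such as those of Ptprc (13.26) and Cd3d (12.87). The intervals bound differences of the deposited values. The part of brightness in these comparisons with all genes was not tested. Smaller differences, inside these intervals, were not detectable with this number of arrays. The adjusted threshold was stricter still: the largest limma p that passed over all genes was 7.2e-05. Hdac6, with a log2 difference of -0.71, did not pass it. The count of 0 members past the threshold therefore does not by itself bound their differences. With 3 arrays against 3, an exact permutation test of a single gene cannot go below p = 0.10.

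**Figure D1:**
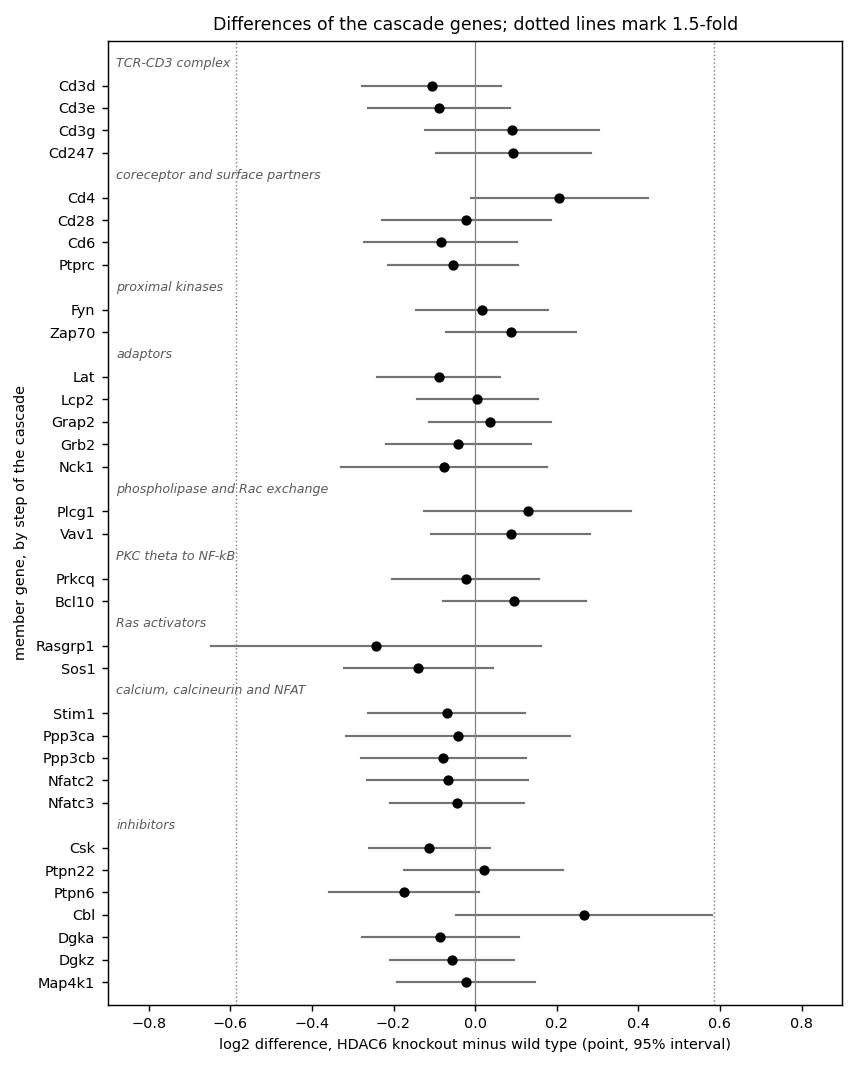
Log2 difference of each of the 33 measured cascade genes, knockout minus wild type (horizontal axis, log2 units), as points with 95% intervals, grouped by step. Every interval includes 0, and the interval of Rasgrp1 alone (-0.65 to 0.16) crosses a dotted line, which marks 1.5-fold.

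Members were more often lower than higher in the knockout, with 21 lower and 12 higher, or 36.4% higher against 50.7% of all genes. The median log2 difference was -0.04 for members and 0.0019 for all genes. Whether the members as a list differ from all genes was not tested. The knockout and wild-type arrays did not overlap for 6 of 33 members (18.2%), against 18.6% of all genes, a share near the background. Zap70 and Cbl were higher without overlap, where 8.28% of all genes were, and Cd3d, Lat, Csk and Ptpn6 were lower without overlap, where 10.3% were. The median deviation of the members from their wild-type means was -0.01, -0.01 and -0.03 on the 3 knockout arrays. On the wild-type arrays it was 0.04, -0.03 and -0.0016.

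**Figure D2:**
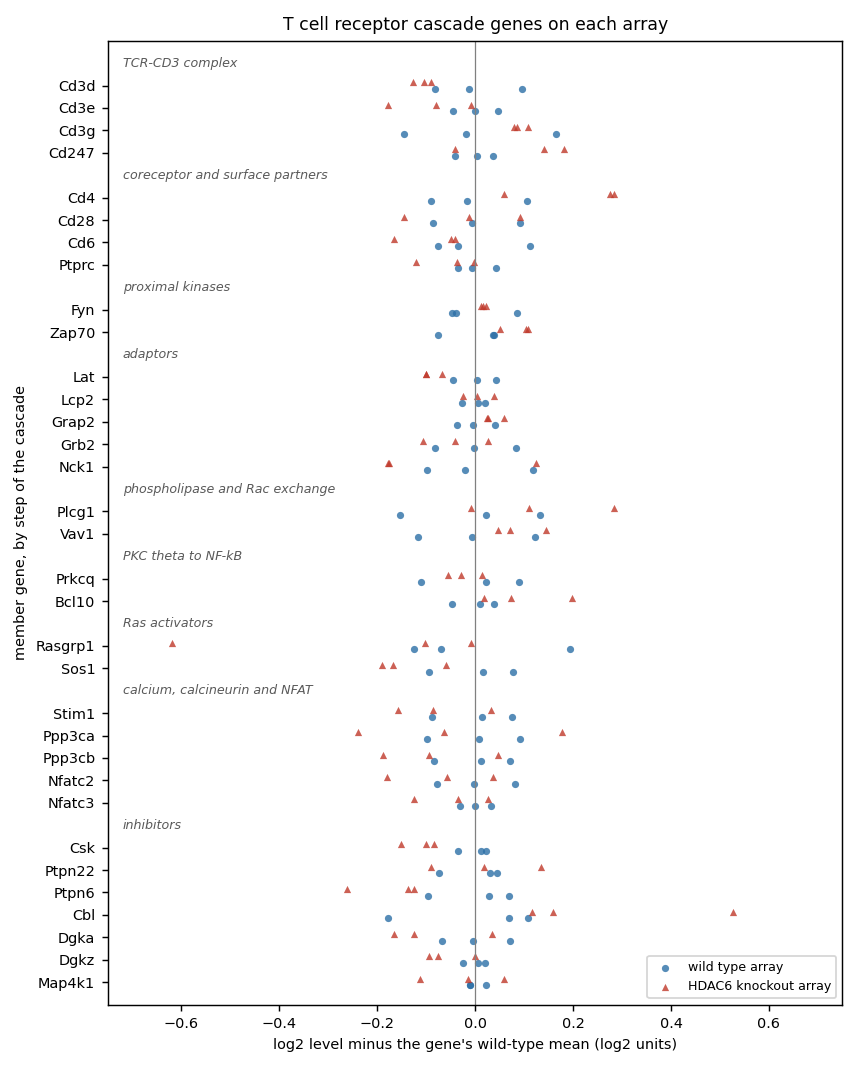
Log2 level of each cascade gene on each array minus the gene's wild-type mean (horizontal axis, log2 units), with triangles for the 3 HDAC6 knockout arrays and circles for the 3 wild-type arrays. Triangles and circles separate completely for 6 of 33 genes, and the farthest are knockout replicate 1 for Rasgrp1 and knockout replicate 3 for Cbl.

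The receptor itself is built from the antigen-binding chains, the CD3 delta, epsilon and gamma chains and the zeta chain, encoded by Cd3d, Cd3e, Cd3g and Cd247. Cd3d, Cd3e and Cd3g are direct neighbours on chromosome 9, with 0 protein-coding genes between them in the RefSeq table (assembly GRCm38.p6). Their upstream sequences are shown because these neighbouring genes encode products that are assembled together. None of their differences passed the threshold, and a link between sequence and level was not tested. Each sequence is the 250 bases before the RefSeq start in GRCm38.p6, at chr9:44981536-44981785 on the plus strand for Cd3d, chr9:44980432-44980681 on the minus strand for Cd3g and chr9:45009612-45009861 on the minus strand for Cd3e. Capitals mark matches on either strand to GGAAGT (an ETS core), TGTGGT (a RUNX core) or GGGCGG (a GC box).
Cd3d: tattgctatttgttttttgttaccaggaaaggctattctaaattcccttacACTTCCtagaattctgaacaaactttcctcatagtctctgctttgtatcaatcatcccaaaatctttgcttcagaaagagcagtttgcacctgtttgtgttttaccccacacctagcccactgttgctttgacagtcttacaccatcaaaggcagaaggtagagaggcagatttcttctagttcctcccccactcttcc
Cd3g: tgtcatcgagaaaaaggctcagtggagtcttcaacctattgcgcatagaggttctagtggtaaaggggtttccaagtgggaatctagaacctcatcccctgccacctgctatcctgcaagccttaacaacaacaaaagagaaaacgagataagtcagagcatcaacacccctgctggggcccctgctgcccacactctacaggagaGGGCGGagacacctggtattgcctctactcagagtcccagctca
Cd3e: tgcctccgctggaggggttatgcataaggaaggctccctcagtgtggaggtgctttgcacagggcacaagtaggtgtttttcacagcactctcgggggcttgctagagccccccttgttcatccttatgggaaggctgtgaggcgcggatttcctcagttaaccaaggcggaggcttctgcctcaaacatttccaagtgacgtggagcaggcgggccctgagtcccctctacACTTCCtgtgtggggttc

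The ETS letters occur 1 time each before Cd3d and Cd3e, the GC box letters 1 time before Cd3g, and the RUNX letters in none of these 3 windows. No matches overlap. RefSeq promoters were found for 29 of the 33 members. Of these 13 (44.8%) held the ETS letters, against 25.1% of the 9887 array genes with a promoter and 19.7% of all 32851 windows. The GC box letters were in 17 (58.6%), against 57.0% of the array genes and 32.7% of all windows, and the RUNX letters in 3 (10.3%), against 13.5% and 14.0%. These are matches of letters and not sites shown to be bound.

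Cd3d read 12.83, 12.79 and 12.81 on the knockout arrays and 12.91, 13.01 and 12.84 on the wild-type arrays. The knockout arrays were all lower, by a margin smaller than the spread of the wild-type arrays, and the log2 difference was -0.11 (SE 0.07, limma's adjusted p = 0.640). Cd3e read 11.98, 11.91 and 11.81 against 12.04, 11.99 and 11.95, which overlapped, with a difference of -0.09 (SE 0.07). Cd3g went the other way, at 12.18, 12.15 and 12.15 against 12.05, 11.92 and 12.23. Wild-type replicate 3 was the highest of the 6, so the groups overlapped, and the difference was 0.09 (SE 0.09).

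Cd247, the zeta chain with the most phosphorylation motifs of the complex, read 11.07, 11.03 and 10.85 on the knockout arrays and 10.89, 10.93 and 10.85 on the wild-type arrays. Knockout replicates 1 and 2 were above every wild-type array and replicate 3 was not, with a difference of 0.09 (SE 0.08). Its other 3 probe sets differed by 0.04, -0.14 and -0.22 from the brighter to the dimmest, so the gene's probe sets did not share a direction. Over the 4 receptor genes the adjusted p ran from 0.640 to 0.761.

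Of the coreceptor and surface genes, Cd4 had the largest difference. CD4 binds MHC class II and carries LCK to the receptor, and it is also an antigen by which the cells were isolated. Cd4 read 10.00, 10.01 and 9.78 on the knockout arrays and 9.83, 9.63 and 9.71 on the wild-type arrays. Knockout replicates 1 and 2 were above all wild-type arrays, and replicate 3 lay among them. The log2 difference was 0.21 (SE 0.09, 95% interval -0.01 to 0.42, limma's adjusted p = 0.469). A dimmer probe set of Cd4 differed by 0.08 (SE 0.10).

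The other surface genes lay closer to wild type. The costimulatory receptor gene Cd28 differed by -0.02 (SE 0.09), and its second probe set by -0.03. Cd6, which encodes a scavenger-type receptor that binds ALCAM, differed by -0.08 (SE 0.08). Ptprc encodes CD45, the phosphatase that keeps LCK ready for activation, and read 13.25, 13.29 and 13.17 against 13.33, 13.25 and 13.28 and so was among the brightest probe sets, for which RMA can understate a change. These arrays overlapped, and the difference was -0.05 (SE 0.07).

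The proximal kinases measured were Fyn and Zap70. Zap70, the kinase that docks on phosphorylated CD3 and zeta chains, read 10.99, 11.00 and 10.94 on the knockout arrays and 10.93, 10.81 and 10.93 on the wild-type arrays. The lowest knockout array was just above the highest wild-type array, and the difference was 0.09 (SE 0.07, limma's adjusted p = 0.683). Its dimmer probe set differed by 0.03 (SE 0.10). Fyn, a Src family kinase that can act beside LCK, differed by 0.02 (SE 0.07), with knockout arrays from 10.78 to 10.79 inside the wild-type range of 10.72 to 10.85.

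Among the adaptors, Lat was the 1 gene without overlap. LAT is the membrane scaffold that ZAP-70 phosphorylates, and its transcript read 11.87, 11.91 and 11.87 on the knockout arrays and 12.02, 11.98 and 11.93 on the wild-type arrays. Every knockout array was lower by a small margin, and the difference was -0.09 (SE 0.06, limma's adjusted p = 0.656). Lcp2, which encodes the partner scaffold SLP-76, was the closest to wild type of all members. It read 11.56, 11.59 and 11.53 against 11.56, 11.53 and 11.58, a difference of 0.0053 (SE 0.06, 95% interval -0.14 to 0.15).

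The linkers that join these scaffolds also overlapped between genotypes in their brightest probe sets. Grap2 encodes GADS, which bridges LAT and SLP-76, and differed by 0.04 (SE 0.06), with a dimmer probe set at 0.18 (SE 0.08) that did not overlap, at 5.46, 5.53 and 5.45 against 5.35, 5.40 and 5.16. Grb2, which brings SOS1 to LAT, differed by -0.04 (SE 0.08), with its other probe set at 0.12. Nck1, which links SLP-76 to the actin machinery, differed by -0.08 (SE 0.11), with its other probe set at -0.20.

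Downstream of the scaffolds, Plcg1 and Vav1 were both slightly higher. Plcg1 encodes the phospholipase that makes the second messengers of the calcium and protein kinase C branches. Its probe set was dim, at 4.84, 4.95 and 5.13 on the knockout arrays and 4.69, 4.97 and 4.86 on the wild-type arrays, not far above the arrays' lower quartiles of 4.14 to 4.25. Without detection calls its level in these cells is uncertain, and the difference was 0.13 (SE 0.11). Vav1, the exchange factor for Rac, read 8.50, 8.58 and 8.48 against 8.56, 8.43 and 8.32, a difference of 0.09 (SE 0.08).

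In the branch to NF-κB, Prkcq encodes protein kinase C theta and Bcl10 an adaptor that acts downstream of it. Prkcq differed by -0.02 (SE 0.08, 95% interval -0.20 to 0.16). Bcl10 read 9.78, 9.66 and 9.61 on the knockout arrays and 9.54, 9.62 and 9.60 on the wild-type arrays, so that knockout replicate 3 lay within the wild-type values. Its difference was 0.10 (SE 0.07), and its other probe sets differed by 0.01 and 0.09.

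Both measured Ras activators were lower. Rasgrp1, which diacylglycerol recruits to activate Ras, read 6.83, 7.35 and 7.45 on the knockout arrays and 7.65, 7.38 and 7.33 on the wild-type arrays. Knockout replicate 1 was well below the other 5 arrays, and knockout replicates 2 and 3 lay among the wild-type values. The log2 difference was -0.24 (SE 0.17, limma's adjusted p = 0.653), and it was -0.06 without knockout replicate 1. The other 2 probe sets of Rasgrp1 differed by -0.12 and -0.05.

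Sos1, the exchange factor that GRB2 carries to LAT, read 6.81, 6.94 and 6.83 on the knockout arrays and 7.08, 7.02 and 6.91 on the wild-type arrays. Knockout replicate 2 overlapped with wild-type replicate 3, and the difference was -0.14 (SE 0.08, limma's adjusted p = 0.568). Its probe sets disagreed more than those of any other member. A dim probe set averaging 4.63 differed by 0.28 (SE 0.11) and was the only 1 of the 61 with an unadjusted p under 0.05, and the dimmest differed by 0.0038.

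In the calcium branch all 5 measured genes were slightly lower and all 5 overlapped between genotypes in their brightest probe sets. Stim1 encodes the sensor that opens calcium channels when stores empty, and differed by -0.07 (SE 0.08). Ppp3ca and Ppp3cb, the catalytic subunits of the phosphatase calcineurin, differed by -0.04 (SE 0.12) and -0.08 (SE 0.09). Every further probe set of these calcineurin genes was also lower, at -0.08 and -0.10 for Ppp3ca and -0.14 for Ppp3cb. The Ppp3ca probe set at -0.10 did not overlap between genotypes.

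The NFAT factors, which calcineurin dephosphorylates so that they enter the nucleus, were also slightly lower. Nfatc2 differed by -0.07 (SE 0.08) and Nfatc3 by -0.04 (SE 0.07). The Nfatc2 probe set averaged 5.87 in the knockout and 5.94 in wild type, below the arrays' medians, and its other 3 probe sets differed by -0.02, 0.08 and 0.0029. The adjusted p over the 5 calcium genes ran from 0.786 to 0.932.

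Of the 7 measured inhibitors of the cascade 0 passed, and 3 did not overlap between genotypes, where 18.6% of all genes did not; whether this step differs from the others was not tested. Cbl encodes a ubiquitin ligase that tags activated receptors and kinases for degradation. The level was 8.85, 8.89 and 9.26 on the knockout arrays and 8.80, 8.55 and 8.84 on the wild-type arrays. The lowest knockout array was barely above the highest wild-type array, and knockout replicate 3 was the highest of the 6. The log2 difference was 0.27 (SE 0.13, 95% interval -0.05 to 0.58, limma's adjusted p = 0.527), and it was 0.14 without knockout replicate 3. A dim probe set of Cbl differed by 0.12 (SE 0.11).

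Ptpn6 encodes SHP-1, a phosphatase that removes activating phosphates from proximal kinases. It read 10.23, 10.24 and 10.11 on the knockout arrays and 10.44, 10.40 and 10.27 on the wild-type arrays, so every knockout array was lower. The difference was -0.18 (SE 0.08, 95% interval -0.36 to 0.01, limma's adjusted p = 0.469), and its other probe set, also without overlap, differed by -0.10 (SE 0.06). Csk, the kinase that places the inhibitory phosphate on LCK and FYN, read 10.89, 10.96 and 10.95 against 11.06, 11.01 and 11.07. These groups did not overlap either, and the difference was -0.11 (SE 0.06, limma's adjusted p = 0.578).

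The remaining inhibitors overlapped between genotypes. Ptpn22, a phosphatase that works with CSK, differed by 0.02 (SE 0.08). The diacylglycerol kinases, which remove the lipid that recruits RASGRP1 and protein kinase C theta, differed by -0.09 (SE 0.08) for Dgka and -0.06 (SE 0.06) for Dgkz, whose other probe set was at 0.06. Map4k1, which encodes HPK1, a kinase that marks SLP-76 for removal, differed by -0.02 (SE 0.07).

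Set side by side, 2 of 7 inhibitors were higher and 5 lower, with a median of -0.06, and 10 of the 26 other members were higher and 16 lower, with a median of -0.04. The difference between these 2 groups was not tested. The medians of the inhibitors on single arrays, relative to wild type, were -0.11, -0.00053 and -0.09 on the knockout arrays and 0.03, -0.03 and 0.02 on the wild-type arrays, so knockout replicate 2 lay at the wild-type level.

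**Figure D3:**
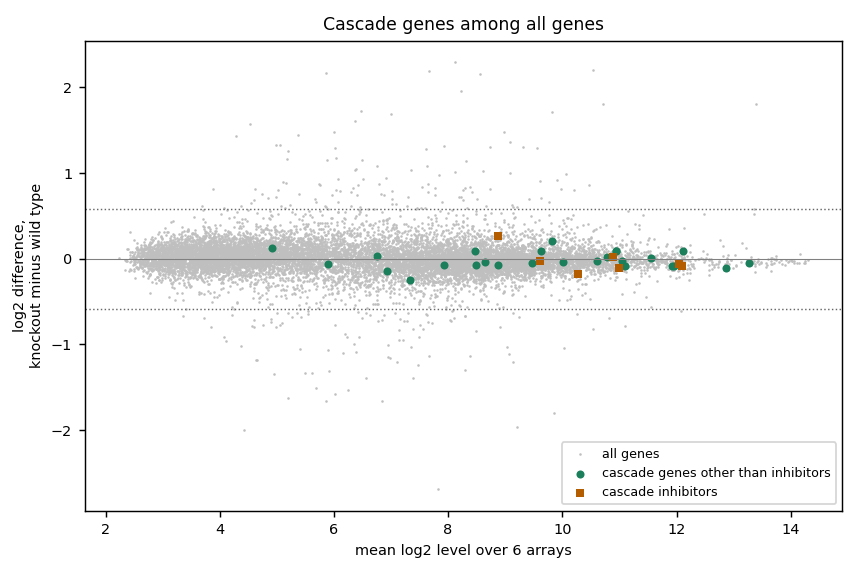
Log2 difference, knockout minus wild type (vertical axis), against the mean log2 level over 6 arrays (horizontal axis) for all 12393 genes (grey) with the 33 cascade genes in colour. The cascade genes lie inside the grey band around 0 and between the dotted lines that mark 1.5-fold.

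Several probe sets allowed a check within a gene. For 20 members with more than 1 probe set, 48 in all, 13 genes had all probe sets on the same side of 0 and 7 had them on both sides. The genes with mixed signs were Cd247, Fyn, Grb2, Sos1, Stim1, Nfatc2 and Dgkz. Over all 61 probe sets of members the differences ran from -0.24 to 0.28, and 0 passed after adjustment over all probe sets by limma (1 had an unadjusted p under 0.05). The genes at the 2 ends of the member range, Cbl and Rasgrp1, kept their direction in every probe set, with smaller differences in the dimmer ones, and so did Cd4 and Ptpn6.

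**Figure D4:**
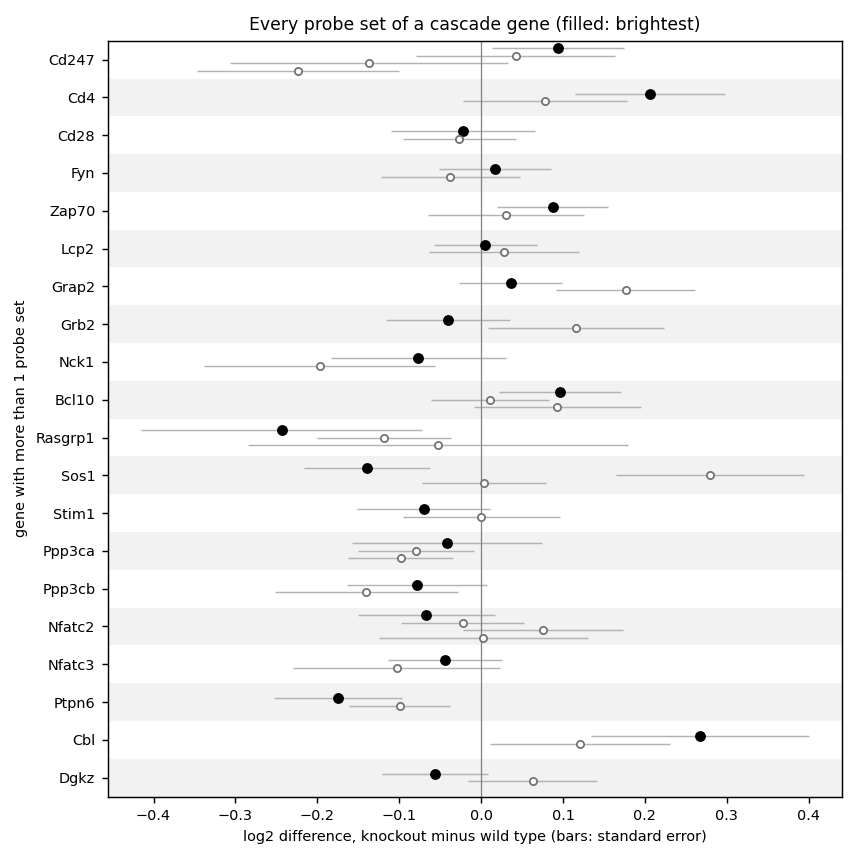
Log2 difference, knockout minus wild type (horizontal axis), of every probe set of the 20 cascade genes with more than 1, with standard errors as bars and the brightest probe set filled. Sos1 has the widest scatter, from -0.14 to 0.28, while the probe sets of Cd28 nearly coincide.

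Other genes of the pathway had log2 differences from -1.14 to 0.48. Of 96 further genes listed by role, 72 were measured, 30 higher and 42 lower, with a median difference of -0.03. By limma 0 passed over all genes, and 13 (18.1%) had an unadjusted p under 0.05, against 11.2% of all genes, while an unmoderated test gave 0 and 8. Knockout and wild type did not overlap for 20 of them (27.8%), of which 15 were lower, where 18.6% of all genes did not overlap.

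Among those higher in the knockout, Ptpn11, which encodes the phosphatase SHP-2, read 9.67, 9.49 and 9.57 against 9.26, 9.24 and 9.21. Its groups were well separated, and the difference was 0.34 (SE 0.07, limma's adjusted p = 0.149). Nfatc1, the NFAT gene that is itself induced by NFAT, read 9.60, 9.33 and 9.24 against 8.96, 8.95 and 8.82, also without overlap. Its difference was 0.48 (SE 0.11, limma's adjusted p = 0.157), in contrast to -0.07 and -0.04 for its relatives Nfatc2 and Nfatc3, and the difference between them was not tested. Nfat5, the family member that responds to osmotic stress, differed by 0.24 (SE 0.09), and Cd8a, a coreceptor chain of the CD8 lineage, by 0.25 (SE 0.08).

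Among those lower in the knockout, Cd8b1, the other CD8 chain, read 6.89, 6.84 and 6.74 against 7.06, 7.23 and 7.29. The difference was -0.37 (SE 0.09, limma's adjusted p = 0.175), opposite to that of Cd8a. Nedd4, a ubiquitin ligase gene, read 7.03, 6.95 and 7.29 against 7.98, 9.06 and 7.64, and wild-type replicate 2 was far above the others. Its difference of -1.14 (SE 0.34, limma's adjusted p = 0.279) was -0.72 without that array. Pag1, the membrane anchor of CSK, differed by -0.22 (SE 0.07), and Pik3r1, a regulatory subunit of phosphoinositide 3-kinase, by -0.25 (SE 0.08).

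**Figure D5:**
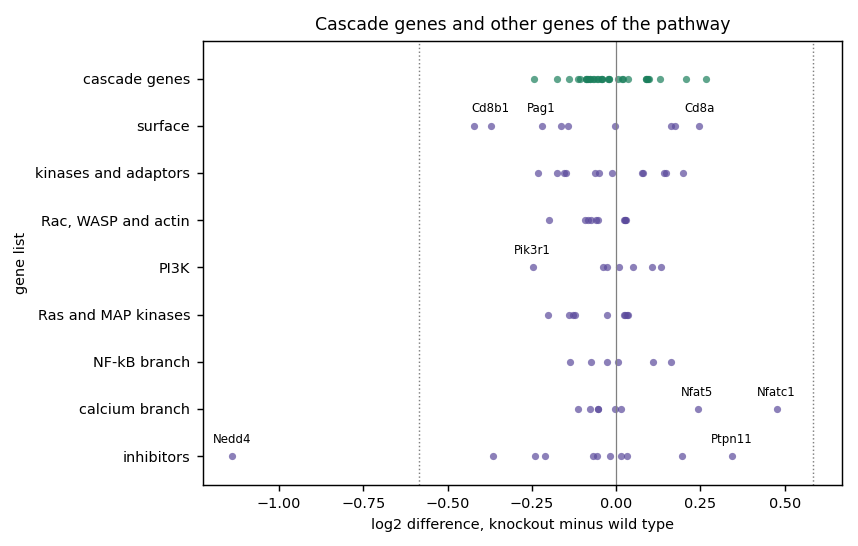
Log2 difference, knockout minus wild type (horizontal axis), of the 33 cascade genes (top row) and of 72 other pathway genes by branch, 1 point a gene, with the 4 of smallest p in each direction named. The cascade genes stay between -0.24 and 0.27, while Nfatc1 reaches 0.48 and Nedd4 -1.14.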

How the data were processed

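Values were 1 table of 22690 probe sets on 6 arrays, deposited by the authors as normalized values. The submitters' processing notes name RMA without a version. The deposited values span the range usual for log2 intensities and were used as such, with no further normalization. RMA understates differences of very dim and very bright probe sets. Levels of different probe sets were compared only as signal, to choose or describe probe sets, and not as transcript amounts. After removal of 64 control probe sets, of the remaining 22626, 20380 named 1 gene, 691 several and 1555 none. Symbols were updated through gene IDs, of which 20351 were found in the RefSeq table.

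Knockout and wild type were compared over all probe sets with limma 3.58.1 in R 4.3.3 (lmFit, eBayes), with 1 probe set per gene, Benjamini-Hochberg adjustment over 12393 genes, two-sided tests and a threshold of 0.05. The number of arrays limits the precision, and p-values measure the spread between samples whose separate origin in animals the labels do not detail. The procedure was tested on simulated data whose spreads were drawn from limma's own variance model. That checks the code and not whether these arrays follow the model. Named genes were Hdac6, every measured member and, of the other pathway genes, the 4 with the smallest p in each direction. The members, lists and tests were chosen with earlier results of these data known. Promoters were read from RefSeq (GRCm38.p6). Results were recomputed with array-wise centring or quantile normalization, with the replicate number as a block, with array weights, with other variance models, without dim probe sets, with other probe set rules, at a threshold of 0.1 and without each array in turn. Figures used matplotlib 3.10.9 in Python 3.11.15.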

Additional observations from a re-analysis of the deposited data

How the results depend on the processing

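For the cascade genes 0 passed under each of the 17 alternatives run, and the lowest adjusted p in any of them was 0.294, for Ptpn6 among probe sets with a mean of at least 6. Other pathway genes also stayed at 0. Of 525 values of single members under the alternatives, 506 kept their direction and 19 changed sign, none of them past the threshold. With the replicate number as a block 0 members passed (lowest adjusted p 0.382), 0 other pathway genes did, and 14 of all genes did. Deviations of same-numbered arrays correlated at 0.22, -0.09 and 0.10, and those of different-numbered arrays from -0.22 to 0.13. So few values cannot settle whether the numbers pair the samples, and the main comparison did not pair them. At the threshold of 0.05 Hdac6 passed with trend and robust settings alone (limma's adjusted p = 0.0247). Its main adjusted p by limma, 0.0862, lay under the looser threshold of 0.1. With quantile normalization Lcp2 was at -0.0023. With the mean of a gene's probe sets Cd247 was at -0.056, Fyn at -0.010, Grb2 at 0.037, Sos1 at 0.048 and Dgkz at 0.0032. Leaving out 1 array, Cd28 ranged from -0.078 to 0.040, Fyn from -0.0066 to 0.060, Grb2 from -0.082 to 0.00051, Lcp2 from -0.011 to 0.021, Map4k1 from -0.064 to 0.023, Ppp3ca from -0.15 to 0.057, Prkcq from -0.079 to 0.021 and Ptpn22 from -0.036 to 0.077. The count over all genes was 20, and it was 83 with trend and robust settings, 0 in an unmoderated test (1353 at an unadjusted p under 0.05), 34 with a mean of at least 6, 71 at a threshold of 0.1, and 3 to 27 without 1 array (3 without knockout replicate 2 or wild-type replicate 2, 8 without knockout replicate 1). The filters left no value for Plcg1, and the first also none for Nfatc2. Probe sets near the arrays' lower quartiles have uncertain levels.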
